A study of Mus musculus with 2 samples.

Results

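The MHC class I antigen-presentation pathway and its immunoproteasome were followed through 10 genes: the light chain gene B2m, the heavy chain genes H2-K1 and H2-D1, the peptide transporter genes Tap1 and Tap2, the tapasin gene Tapbp, the immunoproteasome subunit genes Psmb8, Psmb9 and Psmb10, and the proteasome activator gene Psme1. These are 10 of 27745 gene names on the array. Every gene probe carrying one of the names was taken, which gave 18 of 41174 gene probes, and probes of the polymorphic heavy chain genes were kept apart. All 18 were among the 12619 probes whose signal stood well above background in the same channel on both arrays, and 17 were well above background in both genotypes on both arrays. Of the 10 genes, 7 lie on chromosome 17. No member probe passed the test between genotypes. Most heavy chain probes gave ratios of opposite sign on the 2 arrays.

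The study compared CD8+ T cells lacking the zinc-finger transcription factor Bcl11b with wild-type CD8+ T cells during an acute bacterial infection. The first group came from Bcl11bF/F/dLck-iCre mice, whose floxed Bcl11b alleles are deleted by a Cre recombinase driven by the distal Lck promoter, which is active in T cells. The second group came from wild type mice. Both groups had been infected with Listeria monocytogenes-OVA, a strain expressing ovalbumin, and were sampled at day 6. Cells were isolated by negative selection to a stated purity of over 90%, so a remainder could be other cells. Each of the 2 biological replicates was 1 two-colour array with deficient RNA in Cy5 and wild-type RNA in Cy3. Dye and genotype therefore cannot be told apart. The labels give no age, strain or H2 haplotype, and do not say how many animals stand behind a replicate or whether wild type mice carried the Cre. Ratios below are log2 of deficient over wild type, and intensities are mean spot brightness in scanner units.

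In nucleated cells, class I molecules display peptides of cytosolic proteins to CD8+ T cells. Proteasomes cut the proteins, the Tap1 and Tap2 heterodimer carries peptides into the endoplasmic reticulum, tapasin holds empty class I molecules at the transporter, and a heavy chain with B2m takes the peptide to the surface. Interferon-gamma, which is made during infection with intracellular bacteria, raises transcription of these genes and exchanges the constitutive catalytic subunits of the proteasome for immunoproteasome subunits.

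Upstream sequences of the heavy chain genes and B2m are shown as description, chosen with their ratios in view. Whether the ratios of these genes differ from each other, or relate to the sequences, was not tested. The RefSeq promoter table (GRCm38.p6) held 9 of the 10 genes, and Tap2 was the one not matched. Each sequence is the 250 bases before the annotated start, read on the gene's strand: chr17:34000348-34000597 for H2-K1, the first of its 2 listed starts, chr17:35262844-35263093 for H2-D1, and chr2:122147437-122147686 for B2m. Capitals mark interferon-response type motifs (GAANNGAAA or GAAANNGAA, which can overlap) and kappaB type motifs (GGGNNTTCC), searched on both strands and chosen with these sequences in view.
H2-K1: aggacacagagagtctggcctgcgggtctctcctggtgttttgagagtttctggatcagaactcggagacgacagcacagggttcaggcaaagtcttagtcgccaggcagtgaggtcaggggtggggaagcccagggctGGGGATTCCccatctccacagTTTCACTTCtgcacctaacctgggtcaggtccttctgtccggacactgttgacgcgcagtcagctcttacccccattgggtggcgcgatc
H2-D1: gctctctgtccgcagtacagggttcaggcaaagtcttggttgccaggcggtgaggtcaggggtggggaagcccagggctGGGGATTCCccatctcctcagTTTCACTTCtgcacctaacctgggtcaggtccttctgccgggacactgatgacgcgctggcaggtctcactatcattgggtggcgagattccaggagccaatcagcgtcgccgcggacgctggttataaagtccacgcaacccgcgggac
B2m: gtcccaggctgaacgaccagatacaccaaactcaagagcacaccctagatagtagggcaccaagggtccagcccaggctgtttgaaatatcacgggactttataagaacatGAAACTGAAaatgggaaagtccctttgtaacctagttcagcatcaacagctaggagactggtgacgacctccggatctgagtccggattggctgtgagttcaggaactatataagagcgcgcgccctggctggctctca
The sequences of the heavy chain genes shared 161 identical positions over 177 aligned columns (91.0%), and the kappaB type and interferon-response type motifs stood side by side in both. The interferon-response type motif began 90 bases before the start in H2-K1 and 150 bases before it in H2-D1. B2m held the other interferon-response type spelling 139 bases before its start, and no match to the kappaB type letters. In all 32851 promoters of the table, windows of this length held GAANNGAAA in 6.31%, GAAANNGAA in 7.13% and the kappaB type motif in 4.98%. Among the 9 member promoters the counts were 2, 1 and 2. The motif TGACG, the core of a cAMP-response element, lay in 5 member promoters and in 17.8% of all promoters. The starts of Psmb9 and Tap1 lie 226 bases apart and face away from each other, so their upstream windows overlap. The TGACG matches counted for Psmb9 and for Tap1 are the same bases read on opposite strands. A match describes letters and not a site.

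Bcl11b was read as a check of the labels. Its brighter probe had log2 ratios of -0.69 on replicate 1 and -2.95 on replicate 2 (mean -1.82, adjusted p = 0.00989, limma), and its other probe -1.09 and -2.03, with deficient RNA not well above background on either array. Bcl11b was thus lower in the deficient channel of both arrays, less so on replicate 1. T-cell markers were lower in that channel too, with medians of -1.14 on replicate 1 and -1.49 on replicate 2. The parts of gene deletion and of fewer T cells in the Bcl11b ratios were not tested. The brighter probe did not pass without background correction (-1.52, adjusted p = 0.0781) or with the fitted background surface (-1.79, adjusted p = 0.0960), and over all 12 alternatives its adjusted p ran from 0.000649 to 0.279. Over all 12619 probes, 345 were higher and 615 lower, which is 7.61% of those tested (2.73% higher and 4.87% lower). The lower share of calls was 64.1%, and it became 86.1% with median centring in place of loess, 50.7% after centring on the probes tested, 37.4% without background correction, 28.8% with the fitted background surface and 26.4% when both channels had to be well above background. No probe passed with the Feature Extraction ratios or the value table, with dim probes kept, or with the channels fitted separately. With 1 residual degree of freedom, the spread was borrowed from all probes, and the smallest absolute mean ratio called was 1.23.

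Against that background of 7.61%, 0 of the 18 member probes passed, and adjusted p-values in limma ran from 0.233 to 0.974. An unadjusted p under 0.05 in limma was found for 0 of the 18, against 2853 of the 12619 probes tested. The median of the member probes was 0.04, and that of all probes tested was -0.17. On replicate 1 the member median was -0.21 (all probes -0.30), and on replicate 2 it was 0.42 (all probes -0.02). Of the 18 probes, 12 lay below 0 on replicate 1 (61.2% of all probes tested) and 14 above 0 on replicate 2 (48.7% of all probes tested). Ratios had opposite signs on the arrays for 10 member probes, against 26.3% of all probes tested. No member probe was beyond 2-fold in the same direction on both arrays.

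**Figure D1:**
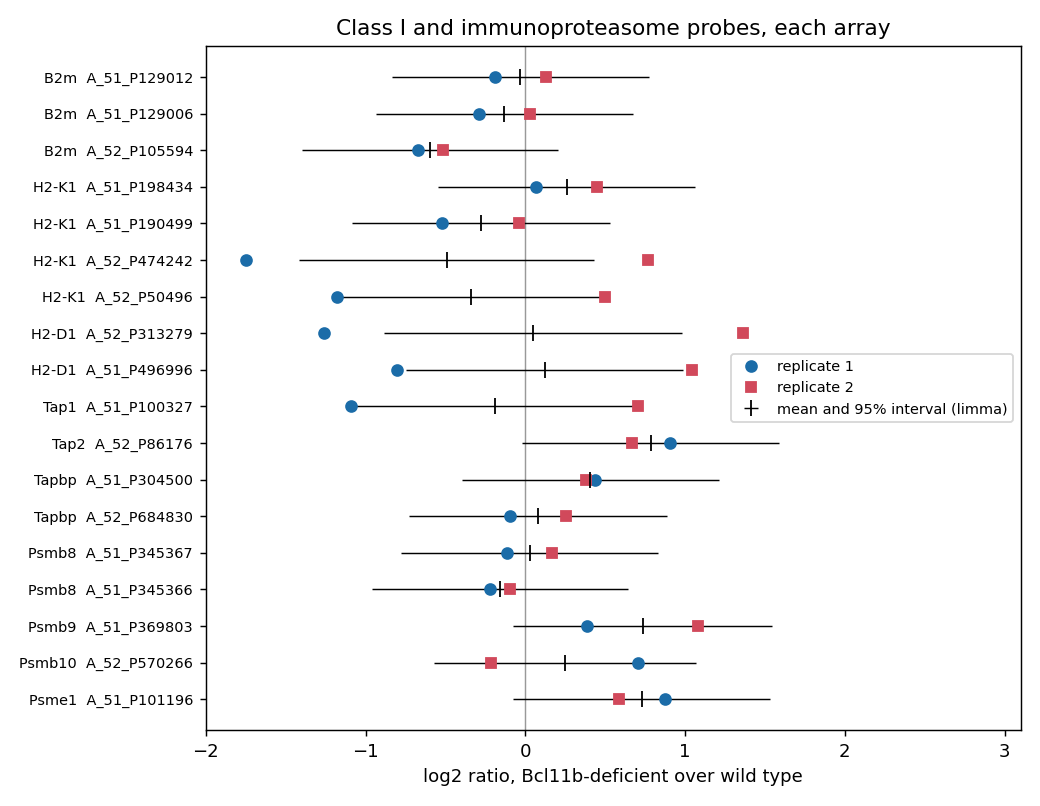
Log2 ratio of deficient over wild type (horizontal axis) for each of the 18 member probes (rows), with circles for replicate 1, squares for replicate 2, and a tick and bar for the mean and its 95% interval from limma. All 18 intervals cross 0. The circles and squares are farthest apart at the H2-D1 probes, H2-K1 probe A_52_P474242 and Tap1. With median centring in place of loess, 17 of the 18 circles lie below 0.

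The heavy chains, which bind the peptide, carried the widest gaps. H2-D1 was read by probe A_52_P313279 at chr17:34874240-34874299 (build mm8, as all probe positions here), which the array files also assign to H2-Q2, and by probe A_51_P496996 at chr17:34874545-34874777. The intensities of A_52_P313279 were 43466 in wild type and 10192 in deficient cells on replicate 1, and 39861 and 131573 on replicate 2. Its log2 ratios were -1.26 and 1.36, a difference of 2.62 that exceeded the gap between the arrays at 99.3% of all probes tested. Wild type lay above deficient on one array and far below it on the other. The mean was 0.05 (95% interval -0.88 to 0.98, adjusted p = 0.959, limma), so a change of nearly 1 in either direction lies within the interval. That interval rests mostly on the spread borrowed from all probes, and both ratios of this probe lie outside it. The SD of its own ratios was 1.86, so the interval understates the uncertainty at this probe. Probe A_51_P496996 had intensities of 36491 and 11658 on replicate 1 and 37865 and 100864 on replicate 2. Its ratios were -0.80 and 1.04, with a mean of 0.12 (interval -0.75 to 0.99, adjusted p = 0.886).

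H2-K1 was read by 4 probes, all listed on the minus strand. Probes A_52_P474242 (chr17:33609987-33610233) and A_52_P50496 (chr17:33609797-33609856) lie 3.17 kb upstream, in the gene's direction, of the overlapping probes A_51_P190499 (chr17:33606572-33606626) and A_51_P198434 (chr17:33606564-33606623), which share 52 bases. The upstream pair went the way of H2-D1. Probe A_52_P474242 had intensities of 11909 (wild type) and 2681 (deficient) on replicate 1 and 13899 and 31427 on replicate 2, with ratios of -1.75 and 0.77 (mean -0.49, interval -1.42 to 0.43, adjusted p = 0.536). Probe A_52_P50496 had ratios of -1.18 and 0.50 (mean -0.34, adjusted p = 0.653).

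The overlapping H2-K1 probes stayed nearer 0. Probe A_51_P198434 had intensities of 86574 and 45817 on replicate 1 and 76581 and 133286 on replicate 2, and ratios of 0.07 and 0.45 (mean 0.26, interval -0.55 to 1.06, adjusted p = 0.718). Probe A_51_P190499 had ratios of -0.52 and -0.04 (mean -0.28, adjusted p = 0.697). On each array the probes of H2-K1 thus differed among themselves, and on replicate 1 their ratios spanned -1.75 to 0.07. Over the 6 heavy chain probes the median was -0.99 on replicate 1 and 0.63 on replicate 2, with 4 of opposite sign. In the 11 alternatives that kept all 6 probes, 4 or 5 were of opposite sign, with replicate 1 the lower.

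The gap between arrays lay in the deficient channel. The wild-type intensities of the 6 heavy chain probes on replicate 2 were 0.885 to 1.28 times those on replicate 1. Deficient intensities of the same probes were 2.91 to 12.9 times higher on replicate 2, with a median of 7.87. Across all probes tested these ratios of replicate 2 to replicate 1 had medians of 1.16 in wild type and 1.15 in deficient cells, and across the 631 brightest probes 1.07 and 2.26. All 18 member probes were brighter in deficient cells on replicate 2 than on replicate 1, as were 95.6% of the 631 brightest probes and 62.9% of all probes tested. For H2-D1 probe A_52_P313279 the deficient ratio of 12.9 exceeded that of 99.9% of all probes tested.

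**Figure D2:**
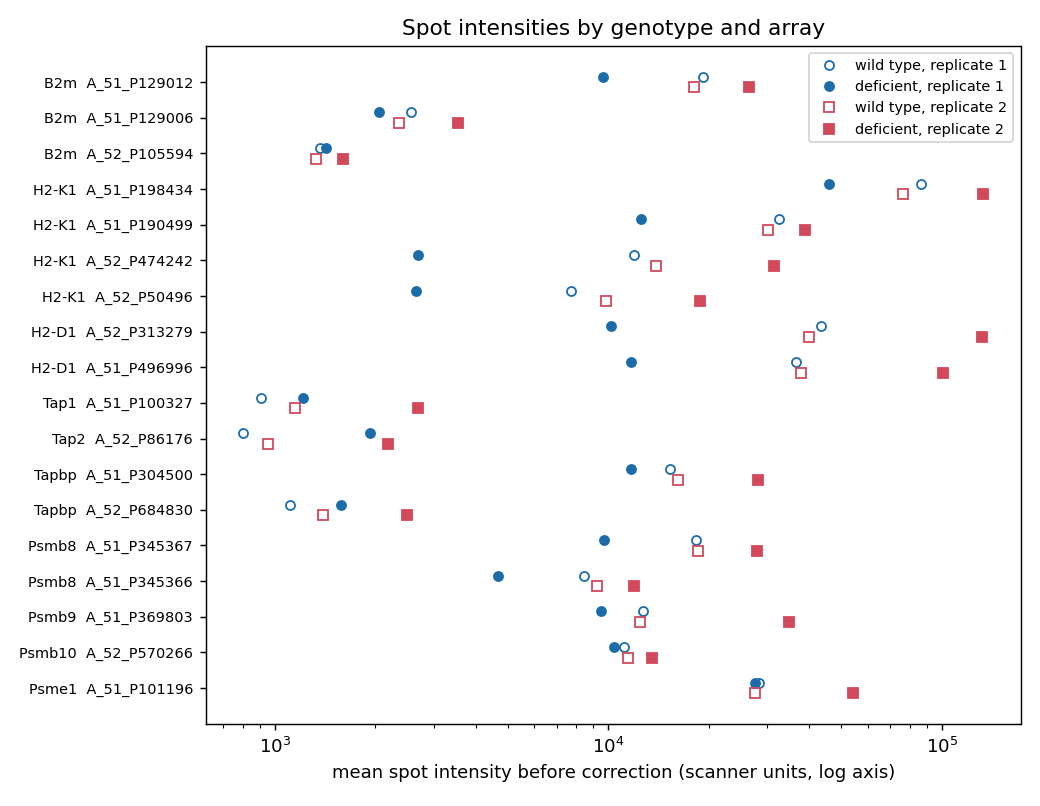
Mean spot intensity before any correction (horizontal log axis, scanner units) of each member probe (rows), with open symbols for wild type, filled symbols for deficient cells, circles for replicate 1 and squares for replicate 2. Open circles and squares lie close together, within 0.885 to 1.28 times of each other, whereas filled symbols of the heavy chain probes lie 2.91 to 12.9 times apart.

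Spots repeated within an array set a scale for measurement error. Probe A_51_P198434 of H2-K1 has 10 spots per array, and after removal of 1 outlier spot on replicate 2 the SD of their ratios was 0.04 on replicate 1 and 0.02 on replicate 2. Its arrays differed by 0.38. The B2m probe A_51_P129006, also with 10 spots, had a spot SD of 0.11 and 0.06 and differed by 0.32 between arrays. At both probes the difference between arrays exceeded the spot SD. Such spots share their RNA and dye labelling, so their spread leaves out the error of both.

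**Figure D3:**
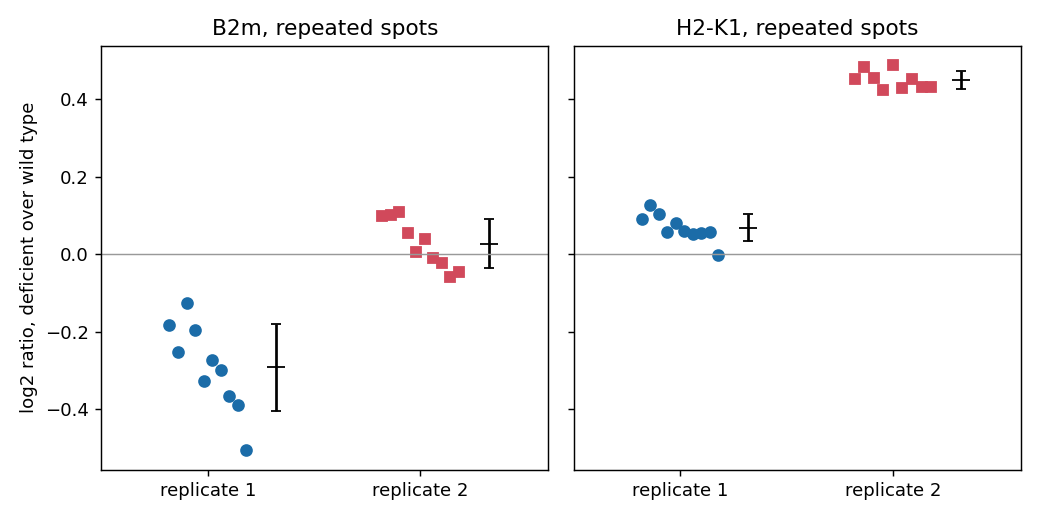
Log2 ratio of deficient over wild type (vertical axis) for each used spot of the B2m probe A_51_P129006 and the H2-K1 probe A_51_P198434 on replicates 1 and 2, in file order, with the mean and SD over spots beside them. The spots of the H2-K1 probe form separate groups around 0.07 on replicate 1 and 0.45 on replicate 2.

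B2m, the invariant light chain that pairs with every classical heavy chain, had small ratios after loess. Probe A_51_P129012 (chr2:121844106-121844165) had intensities of 19262 in wild type and 9654 in deficient cells on replicate 1 and 18089 and 26466 on replicate 2, with ratios of -0.19 and 0.13 (mean -0.03, interval -0.83 to 0.77, adjusted p = 0.970). Probe A_51_P129006 (chr2:121844230-121844286) had ratios of -0.29 and 0.03 (mean -0.13, adjusted p = 0.859). A further probe at chr2:121840304-121840363, drawn from the transcript AK086184, had -0.67 and -0.52 (mean -0.60, interval -1.40 to 0.21, adjusted p = 0.383). After loess the B2m probes did not follow the swing of H2-D1, and their array differences were at most 0.32. The size of these differences depended on the normalization. With median centring in place of loess the B2m probes had -1.84, -1.55 and -1.45 on replicate 1. On replicate 2 they had -0.16, -0.16 and -0.62 in the same order. H2-D1 probe A_52_P313279 then had -2.94 and 1.03.

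Of the transporter genes, Tap2 was above 0 on both arrays. Tap2 (chr17:33825052-33825639) had intensities of 802 in wild type and 1923 in deficient cells on replicate 1 and 951 and 2190 on replicate 2. Its ratios of 0.91 and 0.67 gave the highest mean of the members, 0.79 (interval -0.02 to 1.59), and the lowest adjusted p, 0.233. Deficient was brighter than wild type on both arrays, but the median negative control was too. Those medians were 968 against 326.5 on replicate 1 and 707 against 406 on replicate 2. The mean ratio of Tap2 stayed above 0 in all 12 alternatives (0.39 to 0.95). Tap1 (chr17:33804121-33804180) had intensities of 910 and 1215 on replicate 1 and 1148 and 2681 on replicate 2, with ratios of -1.09 and 0.71 (mean -0.19, adjusted p = 0.806). Tap1 was the member probe that was not well above background throughout, since deficient RNA reached that level on 1 of 2 arrays. For scale, the medians of the negative controls in the deficient channel were 968 and 707, near its Tap1 intensity on replicate 1.

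Tapasin, which bridges the transporter and the heavy chain, was read by 2 probes. Probe A_51_P304500 (chr17:33539531-33539590) had intensities of 15334 in wild type and 11678 in deficient cells on replicate 1 and 16183 and 28134 on replicate 2. Its ratios of 0.43 and 0.38 (mean 0.41, interval -0.40 to 1.21, adjusted p = 0.556) were the closest between arrays among the members. The other probe (chr17:33536605-33536664) had -0.09 and 0.25 (mean 0.08, adjusted p = 0.921). With median centring in place of loess the means of these probes turned to -0.56 and -0.36.

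Of the immunoproteasome subunits, which are the catalytic subunits induced by interferon-gamma, Psmb9 was above 0 on both arrays. Psmb9 (chr17:33792517-33792576) had intensities of 12711 in wild type and 9532 in deficient cells on replicate 1 and 12419 and 34899 on replicate 2, with ratios of 0.38 and 1.08 (mean 0.73, interval -0.08 to 1.55, adjusted p = 0.275). After loess Psmb8 was close to 0 at both probes. Its ratios were -0.11 and 0.17 at chr17:33811038-33811097 (mean 0.03, interval -0.78 to 0.83, adjusted p = 0.974). At chr17:33811095-33811419 they were -0.22 and -0.09 (mean -0.16, adjusted p = 0.828). Psmb10 (chr8:108824906-108824965) had ratios of 0.71 and -0.21 (mean 0.25, interval -0.57 to 1.07, adjusted p = 0.734), in the order of arrays opposite to that of the heavy chains. Psme1, a subunit of the activator ring that caps the proteasome (chr14:54535428-54535487), had intensities of 28358 and 27500 on replicate 1 and 27588 and 54221 on replicate 2. Its ratios were 0.87 and 0.58 (mean 0.73, interval -0.08 to 1.53, adjusted p = 0.272). The means of Psmb9 and Psme1 turned to -0.23 and -0.28 with median centring in place of loess, so their direction is not settled by these arrays. With that centring the Psmb8 means became -0.94 and -1.08, in the order of probes above, and the Psmb10 mean -0.71.

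**Figure D4:**
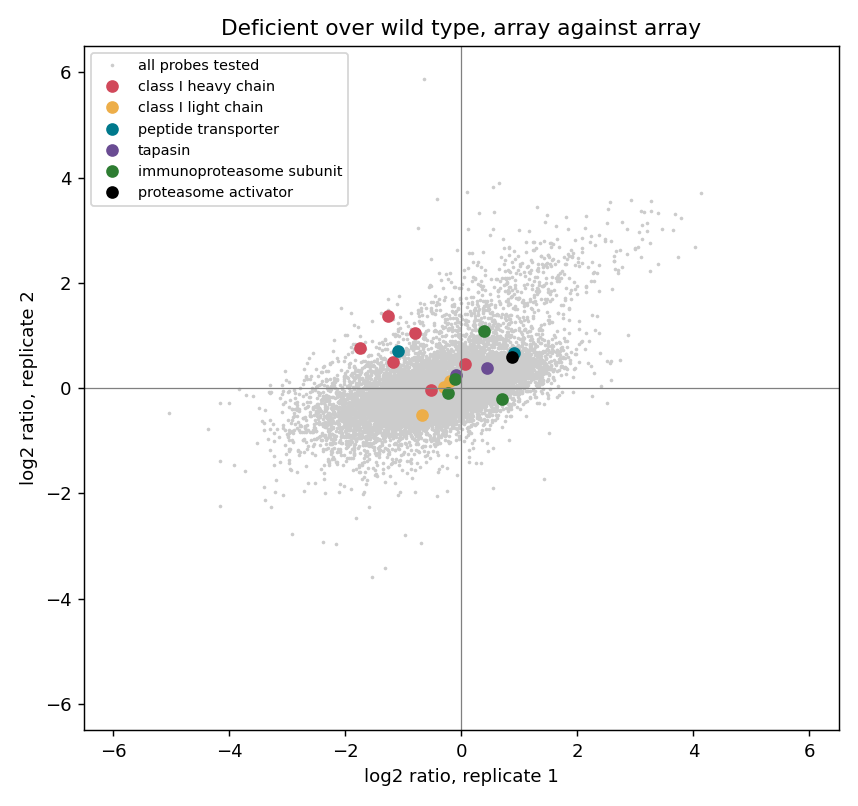
Log2 ratio of deficient over wild type on replicate 1 (horizontal axis) against replicate 2 (vertical axis), with a grey point for each of the 12619 probes tested and coloured circles for the member probes by role. Of the 6 heavy chain probes, 4 lie at the upper left, below 0 on replicate 1 and above 0 on replicate 2, and Tap2, Psme1 and Psmb9 lie at the upper right. With median centring in place of loess, Psme1 and Psmb9 are below 0 on replicate 1.

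Each immunoproteasome subunit replaces a constitutive one, so the pairs were set side by side, with no test. Psmb5, the constitutive partner of Psmb8, had ratios of 0.73 and 0.13, and the differences, Psmb8 minus Psmb5, were -0.84 on replicate 1 and 0.04 on replicate 2. Psmb6, the partner of Psmb9, had 0.68 and 0.11, and the differences were -0.30 and 0.97. Psmb7, the partner of Psmb10, had -0.90 and 0.07, with deficient RNA well above background on 1 of 2 arrays, and the differences were 1.61 and -0.28. In none of the 3 pairs did the difference keep its sign. Of all 14 constitutive core subunits, 0 passed, against 7.46% of all genes with 1 probe per gene. An unadjusted p under 0.05 in limma was found for 0 of them, against 2853 of the 12619 probes tested. Their median was 0.16 (0.24 on replicate 1 and 0.12 on replicate 2), and it turned to -0.52 with median centring in place of loess.

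Member spots were mostly bright, and their ratios changed with the normalization. Of the 18 probes, 13 were brighter than 95% of all probes tested. Before loess, medians of the 631 brightest probes were -0.61 and 0.42 on the first and second array, against 0.76 and 0.74 over all probes tested. After loess the bright medians were 0.17 and -0.00. The member median of 0.04 became -0.87 with median centring in place of loess (-1.62 on replicate 1 and 0.11 on replicate 2), whereas that of all probes tested moved from -0.17 to -0.40. The gaps between arrays at the heavy chain probes were ranked among those of the 631 brightest probes. At H2-D1 the gaps exceeded those at 99.0% (A_52_P313279) and 95.9% (A_51_P496996) of these probes. At H2-K1 they exceeded 98.7% (A_52_P474242), 94.0% (A_52_P50496), 46.1% (A_51_P190499) and 36.1% (A_51_P198434). The part of brightness in these gaps, and in the change with median centring, was not tested.

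Other class I genes, whose sequences resemble those of H2-K1 and H2-D1, were read by 17 tested probes of 13 genes. Of these probes, 13 were below 0 on replicate 1 (61.2% of all probes tested) and 12 above 0 on replicate 2 (48.7%). Opposite signs were found for 8 (26.3% of all probes tested), and 13 were higher on replicate 2 than on replicate 1 (64.4%). Their medians were -1.08 and 0.41. With median centring in place of loess 10 of 17 had opposite signs (25.4% of all probes tested), and after centring on the probes tested 11 (26.8%). H2-Q1 (chr17:34929602-34931174), chosen after its values were seen, had -2.20 and 0.92. An H2-Q10 probe (chr17:35081318-35081377), also chosen after its values were seen, had -1.18 and 1.03, and the array files assign it to H2-D1, H2-Q1 and H2-Q6 too. The files list 1 RefSeq gene for 9 of the 17 probes, more than 1 for 6 and none for 2. No probe was higher and 1 was lower, H2-T22 (chr17:35649533-35649592), with -2.45 and -0.38 (mean -1.41, adjusted p = 0.0409) and deficient RNA well above background on 1 of 2 arrays.

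Genes of the related pathway lists were counted with 1 probe per gene, beside the share over all genes. By that count 7.46% of 9928 genes passed, 3.16% higher and 4.3% lower. Among 15 genes measured on the list of other class I genes 1 was higher, Fcgrt, the heavy chain of the neonatal Fc receptor (1.08 and 1.46, mean 1.27 ± 0.27, SD, n = 2, adjusted p = 0.0439). That list also held H2-Ke6 (-0.89 and -0.17), a gene of the H2 region that encodes no class I chain. Among 11 other genes of peptide trimming, proteasome assembly and class I loading 1 was higher, the proteasome maturation factor gene Pomp (1.52 and 1.26, mean 1.39 ± 0.19, adjusted p = 0.0269), against a list median of -0.18. Among 18 regulators of class I transcription 2 were higher and 0 lower, with a median of -0.15. These were Irf8, a transcription factor of myeloid and B cells (1.66 and 2.42, mean 2.04 ± 0.54, adjusted p = 0.00151), and Ifngr1, the ligand-binding chain of the interferon-gamma receptor (1.24 and 1.34, mean 1.29 ± 0.07, adjusted p = 0.0398). With median centring in place of loess Fcgrt, Pomp, Irf8 and Ifngr1 did not pass, with means of 0.93, 0.46, 1.17 and 0.37.

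Class II presentation, the pathway of professional antigen-presenting cells, moved in the same RNA. Of 9 class II genes measured, 8 were higher, with a median of 1.78 (1.29 on replicate 1 and 2.33 on replicate 2). Ciita, the class II transactivator, had 2.12 and 3.04 (mean 2.58 ± 0.65, adjusted p = 9.23e-05). H2-Ab1, a class II beta chain, had 1.81 and 3.25 (mean 2.53 ± 1.02, adjusted p = 0.000176). H2-DMb1, a chain of the class II peptide editor, had a mean of 2.18 ± 0.21, and H2-Eb1, another beta chain, 2.15 ± 0.86. Of the 9 genes, 1 passed with median centring in place of loess, Ciita (1.93), and the list median was 0.97 (-0.22 on replicate 1 and 2.09 on replicate 2). Whether class II differed from class I was not tested.

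**Figure D5:**
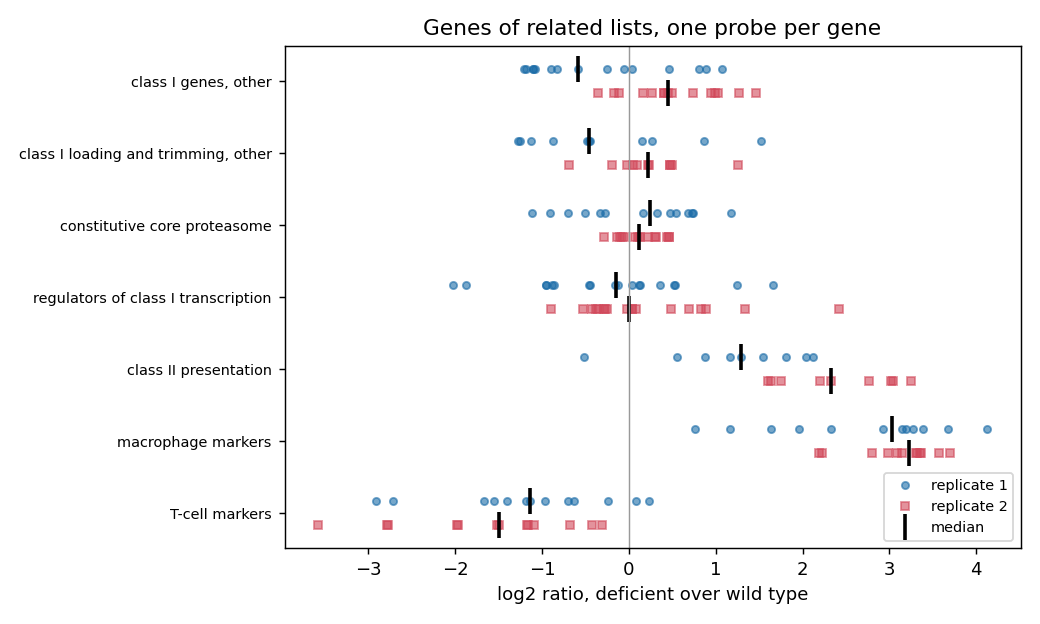
Log2 ratio of deficient over wild type (horizontal axis) for each measured gene of 7 lists (rows), 1 probe per gene, with circles for replicate 1, squares for replicate 2 and black ticks for list medians. Class II genes have medians of 1.29 and 2.33, the first of which turns to -0.22 with median centring in place of loess. Macrophage markers have 3.03 and 3.23, and T-cell markers have -1.14 and -1.49. The list of other class I genes, which also holds H2-Ke6, has -0.58 on replicate 1 and 0.45 on replicate 2.

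Markers of other cells differed between the genotypes as well. All 12 measured of 15 macrophage markers were higher, with medians of 3.03 on replicate 1 and 3.23 on replicate 2, led by Apoe (3.91 ± 0.30), C1qc (3.49 ± 0.26), Adgre1 (3.35 ± 0.04) and Vcam1 (3.32 ± 0.07). Of the 12, 10 passed with median centring in place of loess. Channel brightness was also summed after background correction, loess and equalizing of average brightness between arrays, so the sums are not scanner intensities. Over the 12 measured macrophage markers the sums were 29417 and 18830 in wild type and 222965 and 189868 in deficient cells. Higher calls were also made for 2 of 4 measured B-cell markers (Ms4a1 and Cd79b), 2 of 3 dendritic cell markers (Itgax and Batf3), 3 of 6 neutrophil markers (S100a9, S100a8 and Camp) and 3 of 3 erythroid markers (Hba-a1, Alas2 and Slc4a1). Median centring in place of loess left 2 of the neutrophil calls and 0 of the B-cell, dendritic cell and erythroid ones.

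Of the 13 T-cell markers, all well above background in wild type on both arrays, 6 were lower and 0 higher, with a median of -1.17. They included Tcra, the array's name for the T-cell receptor alpha gene (-2.84 ± 0.10), Cd6 (-2.56 ± 1.44), Cd3e (-2.34 ± 0.53) and Cd3g (-1.82 ± 0.21). For Tcra and Cd3e deficient RNA was well above background on 1 of 2 arrays. Of the 13 markers, 11 were lower with median centring in place of loess. Their summed channel brightness, corrected as for the macrophage markers and not in scanner units, was 216019 and 248114 in wild type. In deficient cells it was 121843 and 86273. In such bulk RNA fewer T cells and less RNA per cell cannot be told apart. The part of other cells in the class I ratios was not tested.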

How the data were processed

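The members, lists and motifs were chosen with earlier results of these data known. Per the file headers, the authors' scanner files come from Agilent Feature Extraction 9.5.3.1 and hold spot intensity values, that is mean brightness and median local background, with a log10 ratio of red over green after the program's own background surface and dye normalization. The deposited value table holds the same log10 ratio (differences of at most 0.005). Background was corrected with normexp (offset 50) and dye bias by a loess curve per array that gave controls no weight. Outlier spots were left out (255 and 195 gene spots) and spots of a probe averaged. A probe was tested if the same channel, wild type or deficient, stood well above background on each array. Mean ratios were compared with 0 in limma 3.58.1 (R 4.3.3), two-sided, with Benjamini-Hochberg adjustment over 12619 probes and a threshold of 0.05. Of these steps, only the limma fit and its adjustment were tested on simulated data, drawn with the same spread for every probe. They recovered 14.5% of log2 changes of 1 and 92.1% of those of 2. Background correction, loess and the filter were not simulated. Both arrays lie on 1 slide, so slide could not be tested. Gene spots well above background made up 26.0% to 32.4% per channel, and 1 gene spot was saturated. The number of arrays limits the precision. The p-values measure the spread between these 2 arrays mostly as pooled over all probes tested, and little as seen at the probe itself. The pooled part carried 30.6 prior degrees of freedom against 1 residual.

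The RefSeq table (GRCm38.p6) named 24375 of 41174 gene probes by accession and 8727 by symbol, and 8072 kept the array's name. Probe positions are those in the files, on mm8 (NCBI36), without a genome of that build, so exons were not assigned. In lists the brightest probe stood for a gene. Named were every member probe, up to 4 passing genes of each list by smallest adjusted p, Psmb5, Psmb6, Psmb7 and Bcl11b. Alternatives were the Feature Extraction ratios, the value table, no background correction, the fitted background surface, a normexp offset of 16, median centring, centring on the probes tested, no filter, a filter on both channels, an intensity trend, gene level, separate channels (statmod 1.5.0) and each array alone. Sequences were aligned with Biopython 1.88.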

Additional observations from a re-analysis of the deposited data

How the results depend on the processing

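The count of 0 member probes passing held in all 12 alternatives with a test, with 0 to 5 at an unadjusted p under 0.05 in limma. The 5 arose with no filter on dim probes, where 7409 of 41171 probes had such a p. The member median of 0.04 became -0.87 with median centring, and ran from -0.21 without replicate 2 to 0.42 without replicate 1, values with no test. Higher and lower calls over all probes (345 and 615) were 0 and 0 with the Feature Extraction ratios, the value table, no filter on dim probes and separate channels (2511, 2510, 7409 and 2295 probes at an unadjusted p under 0.05, limma). They were 161 and 65 with the fitted background surface. Higher calls were 71 with median centring and 607 after centring on the probes tested, and lower calls 167 without background correction and 172 with both channels well above background. The 12 higher calls in the pathway lists became 0 with the Feature Extraction ratios, the value table, no filter and separate channels, 5 with the fitted background surface and 1 with median centring. So the calls named for Pomp, Fcgrt and Ifngr1 held in 5 or 6 of 12 alternatives, and H2-T22 in 3 of 10. No paired analysis was possible because each array already pairs the genotypes in 1 ratio. The cause of these changes was not tested.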
